A study of Mus musculus with 6 samples.

Results

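The small leucine-rich proteoglycans are a family of 10 genes here, *Epyc*, *Dcn*, *Lum*, *Bgn*, *Fmod*, *Prelp*, *Ogn*, *Omd*, *Aspn* and *Kera*, taken by gene symbol from the 28262 genes of the count table. The family was selected on the fold change of *Epyc*, which is among the most raised genes of the knockout, so the values of *Epyc* are a description without a test. The other members entered by family and not by their values. RNA was taken from Sertoli cells of C57BL/6 mice at 20 days of age, without treatment, in 3 libraries from *Pa1* F/F mice, which carry the floxed alleles without the deletion, and 3 libraries from *Amh-pa1*-/- mice, in which a Cre under the *Amh* promoter deletes the floxed gene in Sertoli cells. The cells of both groups were isolated by enzymatic digestion and kept in culture at 34 °C before lysis. *Pa1* itself was not analysed here, and genotypes rest on the labels. The study's methods call the samples biological replicates, without saying whether each came from separate mice or a separate culture, and the labels do not say so either. The p-values measure the spread between these libraries.

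Small leucine-rich proteoglycans are secreted matrix proteins built from a row of leucine-rich repeats, most of which carry chondroitin, dermatan or keratan sulfate chains. They bind collagen fibrils and set their spacing and diameter, and several of them hold growth factors such as TGF-β in the matrix or bind receptors at the cell surface. Class I holds decorin (*Dcn*), biglycan (*Bgn*) and asporin (*Aspn*), class II holds lumican (*Lum*), fibromodulin (*Fmod*), prolargin (*Prelp*), keratocan (*Kera*) and osteomodulin (*Omd*), and class III holds epiphycan (*Epyc*) and osteoglycin (*Ogn*). In the testis such proteins are known from the wall of the seminiferous tubule and the interstitium. The deposited table annotates the leucine-rich repeat domain for all 10 genes and the extracellular matrix for 9 of them, while *Dcn* carries other terms.

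The 10 genes were measured over a wide range (the plot of normalized counts by library). Normalized counts are the deposited counts scaled to the mean effective size of the 6 libraries. Total counts lay between 13203757 and 16231443 per library. Of the members, 6 passed the filter on low counts and were tested, and 4 (*Lum*, *Omd*, *Aspn* and *Kera*) were too low to be tested. *Omd* and *Kera* had at most 3 counts in any library, the number that is taken as the floor of detection, which stood between 2.72 and 3.38 normalized counts. In *Amh-pa1*-/- cells *Epyc* was far higher, *Bgn* was lower, and *Ogn* passed the test narrowly as higher. *Dcn*, *Prelp* and *Fmod* did not pass. To pass, a gene needed an adjusted p-value below 0.05 together with a log2 fold change of 1 or more in size. Of the 5 tested members other than *Epyc*, 1 was higher, 1 was lower and 3 did not pass, while 12.0% of the 14919 tested genes passed in either direction, 5.44% as higher and 6.56% as lower. By the adjusted p-value alone, 35.3% of tested genes passed, and among the 5 members these were again *Bgn* and *Ogn*. Per-library values below follow the replicate order 1, 2 and 3.

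**Figure D1:**
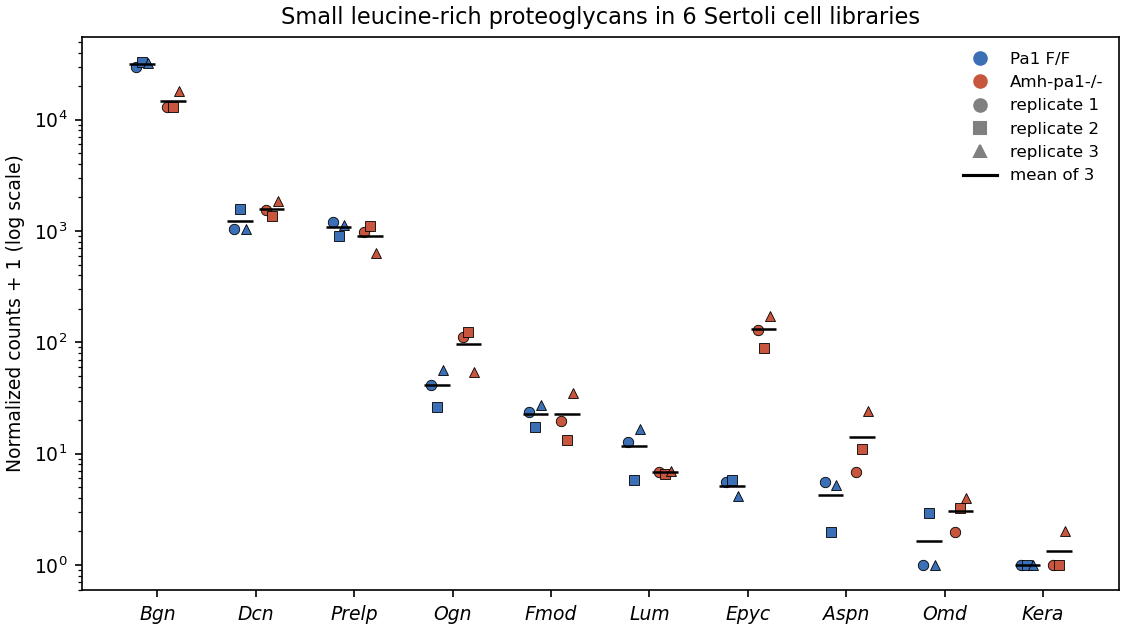
Normalized counts plus 1 of the 10 members on a log scale, 1 point per library, in *Pa1* F/F (blue) and *Amh-pa1*-/- (red) cells, with the mean of 3 as a bar. *Epyc* lies between 3.15 and 4.84 in *Pa1* F/F libraries and between 87.9 and 172 in *Amh-pa1*-/- libraries, and *Bgn* between 30028 and 33024 and between 13058 and 17935.

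*Epyc* (ENSMUSG00000019936) encodes epiphycan, a dermatan sulfate proteoglycan best known from growth plate cartilage and the inner ear. The gene lies on chromosome 10 of GRCm38 from 97644068 to 97682454 on the plus strand. Its counts were 5, 5 and 3 in the *Pa1* F/F group, against 132, 78 and 172 in the *Amh-pa1*-/- group. All control libraries therefore stood at or just above the floor, and every knockout library lay far above all of them. In normalized counts the means were 4.17 ± 0.902 and 129.7 ± 42.2 (SD, n = 3 each), with a fitted log2 fold change of 4.91 (standard error 0.36). Since the control counts were so few, the ratio of the summed counts is given as well, which was 31.2 with a 95% exact (Clopper-Pearson) interval from 18.0 to 59.1. This interval covers counting error only. The family was chosen on this rise, so the interval and the standard error describe it and do not test it. By fitted log2 fold change, *Epyc* stood at place 10 from the top of the 14919 tested genes.

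The sequences before the start sites of *Epyc*, *Bgn* and *Ogn* are shown because *Bgn* and *Ogn* are the members that passed the test and the family was chosen on *Epyc*. They are the 250 bases upstream of the RefSeq start, from the GRCm38.p6 table, 5′ to 3′ on the plus strand, in lower case, with matches to any of 4 searched motifs in capitals. All motifs were searched on both strands. The site of AP-1, the factor family that holds JUN, was written TGANTCA. For the TATA box, a core promoter element, the letters were TATAAA. The CCAAT box is spelled by its own name, and the GC box bound by SP1 was searched as GGGCGG.
Epyc, chr10:97643818-97644067: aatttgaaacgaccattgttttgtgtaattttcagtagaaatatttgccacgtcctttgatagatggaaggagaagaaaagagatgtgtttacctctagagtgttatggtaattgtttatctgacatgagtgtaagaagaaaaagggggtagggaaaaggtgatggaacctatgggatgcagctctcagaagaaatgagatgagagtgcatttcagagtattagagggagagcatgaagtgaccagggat
Bgn, chrX:73483351-73483600: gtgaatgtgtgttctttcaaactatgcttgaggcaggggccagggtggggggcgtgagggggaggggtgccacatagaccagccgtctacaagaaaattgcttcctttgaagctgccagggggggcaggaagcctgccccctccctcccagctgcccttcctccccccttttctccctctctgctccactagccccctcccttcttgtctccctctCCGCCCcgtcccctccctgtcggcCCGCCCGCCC
Ogn, chr13:49607765-49608014: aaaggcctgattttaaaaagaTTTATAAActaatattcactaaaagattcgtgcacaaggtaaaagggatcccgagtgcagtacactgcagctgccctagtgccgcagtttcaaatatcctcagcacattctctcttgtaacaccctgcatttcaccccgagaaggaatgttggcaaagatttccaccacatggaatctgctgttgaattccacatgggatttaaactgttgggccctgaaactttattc

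The *Epyc* stretch holds none of these motifs, and has 39.2% G and C and 2 CpG dinucleotides. The *Bgn* stretch is richer, with 64.4% G and C and 7 CpG dinucleotides, and holds 3 GC box matches, of which the last pair overlap. The *Ogn* stretch has 42.0% G and C and 4 CpG dinucleotides, and its capitals mark 2 overlapping TATA box matches. Over all 32851 promoters of the table, the median stretch of the same length had 52.4% G and C, and 6.75% held AP-1 letters, 12.4% a TATA box, 33.8% a CCAAT box and 32.7% a GC box. The table has entries for 8 members, with 9 start sites in all since *Epyc* has a further one downstream, and AP-1 letters were in 0 of these 9 stretches. *Dcn* and *Lum* have no entry. A match of letters, or its absence in this window, is a description only.

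Among the class I members, *Bgn* (ENSMUSG00000031375) encodes biglycan, which binds collagen and TGF-β and, once released from the matrix, acts on Toll-like receptors. The gene lies on chromosome X from 73483602 to 73495933. Its normalized counts were 30028, 33024 and 32350.3 in the *Pa1* F/F group, against 13058, 13113 and 17935 in the *Amh-pa1*-/- group. All knockout libraries were below all control libraries, which among all tested genes was the case, in either direction, for 52.4%. Replicate 3 was the highest of the knockout. *Bgn* fell from 31801 ± 1572 to 14702 ± 2800.4 normalized counts (SD, n = 3 each), which is 2.16-fold lower (log2 fold change -1.11, standard error 0.14, edgeR, adjusted p = 0.00178). An exact two-sided permutation test gave p = 0.10, the smallest value for 3 against 3. The log2 fold change stayed between -1.28 and -1.02 when 1 library was left out. With the counts of the close pairs of libraries summed (*Pa1* F/F replicates 1 and 3, *Amh-pa1*-/- replicates 1 and 2), which leaves 2 per genotype, the adjusted p-value of edgeR was 0.0507.

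*Dcn* (ENSMUSG00000019929) encodes decorin, which binds collagen fibrils and TGF-β and is a ligand of receptor tyrosine kinases such as MET and EGFR. It lies on chromosome 10 from 97479609 to 97518143. *Dcn* stood at 1033, 1591 and 1051 normalized counts in *Pa1* F/F against 1531, 1359 and 1867 in *Amh-pa1*-/- libraries. The groups overlapped, since *Pa1* F/F replicate 2 lay above 2 of the 3 knockout libraries. Its log2 fold change was 0.37 with a 95% interval from -0.09 to 0.83 that includes 0 (edgeR, adjusted p = 0.181). Without *Pa1* F/F replicate 2 it was 0.60 (edgeR, adjusted p = 0.0234), still under the fold threshold, and without *Amh-pa1*-/- replicate 3 it was 0.24 (edgeR, adjusted p = 0.343). *Aspn* (ENSMUSG00000021388, chromosome 13, from 49544443 to 49567565) encodes asporin, a member that lacks glycosaminoglycan chains. It had 5, 1 and 4 counts in *Pa1* F/F libraries and 6, 9 and 23 in *Amh-pa1*-/- libraries. The groups did not overlap, but neighbouring values of the groups differed by 1 count, and 23 of the 38 knockout counts came from replicate 3. The ratio of summed counts was 4.03 (95% exact interval from 1.97 to 9.08, counting error only), and *Aspn* was not tested.

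Among the class II members, *Prelp* (ENSMUSG00000041577), encoding prolargin, which anchors basement membranes to the underlying tissue, had the highest level per transcript length. It lies on chromosome 1 from 133910304 to 133921414, on the minus strand. *Prelp* stood at 1215, 896 and 1125 normalized counts in *Pa1* F/F against 970.3, 1109 and 637 in *Amh-pa1*-/- libraries. The groups overlapped, with knockout replicate 3 as the lowest library. The log2 fold change was -0.25 with a 95% interval from -0.75 to 0.25 (edgeR, adjusted p = 0.388).

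*Fmod* (ENSMUSG00000041559, chromosome 1, from 134037254 to 134048277) encodes fibromodulin, which regulates collagen fibril assembly. Its normalized counts were 22.7, 16.5 and 26.2 in *Pa1* F/F against 18.5, 12.4 and 34.1 in *Amh-pa1*-/- libraries. Knockout replicate 3 was the highest and knockout replicate 2 the lowest of all 6 libraries. The log2 fold change was 0.00 with a wide 95% interval, from -0.95 to 0.96 (edgeR, adjusted p = 0.995).

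*Lum* (ENSMUSG00000036446, chromosome 10, from 97565128 to 97572703) encodes lumican, a keratan sulfate proteoglycan of cornea and connective tissue. It had 13, 5 and 15 counts in *Pa1* F/F libraries and 6, 5 and 6 in *Amh-pa1*-/- libraries. The ratio of summed counts was 0.547 with a 95% exact interval from 0.286 to 1.01, which reaches past no difference even for counting error alone. *Omd* (chromosome 13, from 49582462 to 49592822), encoding the osteomodulin of bone, had 0, 2 and 0 counts in *Pa1* F/F libraries and 1, 2 and 3 in *Amh-pa1*-/- libraries. *Kera* (chromosome 10, from 97606879 to 97613692), encoding the keratocan of the cornea, had 1 count in all, in knockout replicate 3. A difference in *Omd* or *Kera* was not detectable at this depth.

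The other class III member, *Ogn* (ENSMUSG00000021390), encodes osteoglycin, also known as mimecan, and lies on chromosome 13 from 49608046 to 49624501. Its normalized counts were 40.8, 25.2 and 55.6 in *Pa1* F/F against 111, 123 and 53.1 in *Amh-pa1*-/- libraries. Knockout replicates 1 and 2 lay above all control libraries, and knockout replicate 3 lay below *Pa1* F/F replicate 3. *Ogn* rose from 40.5 ± 15.2 to 95.7 ± 37.4 normalized counts (SD, n = 3 each), at a log2 fold change of 1.24 with standard error 0.40 (edgeR, adjusted p = 0.0497), and the exact two-sided permutation test gave p = 0.200. The call did not hold when any control replicate was left out (edgeR, adjusted p = 0.130, 0.120 and 0.0584 without replicates 1, 2 and 3), nor without knockout replicate 1 or 2 (0.132 and 0.137). With the replicate number as a block its adjusted p-value in edgeR was 0.126, with DESeq2 size factors 0.0514, with limma-voom 0.0692, with the close pairs summed 0.197 and with at least 10 counts in every library 0.0503. *Ogn*, *Omd* and *Aspn* lie within the span of *Cenpp* on the opposite strand, and the strand setting of the counting is not given in the sources used here. *Cenpp*, a centromere protein gene, stood at 33.5, 63.9 and 34.6 normalized counts in *Pa1* F/F against 48.8, 42.8 and 89.2 in *Amh-pa1*-/- libraries. *Cenpp*, *Aspn* and *Omd* were highest in knockout replicate 3, where *Ogn* was the lowest of the knockout, and the part of *Cenpp* reads in the counts of these members was not tested.

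**Figure D2:**
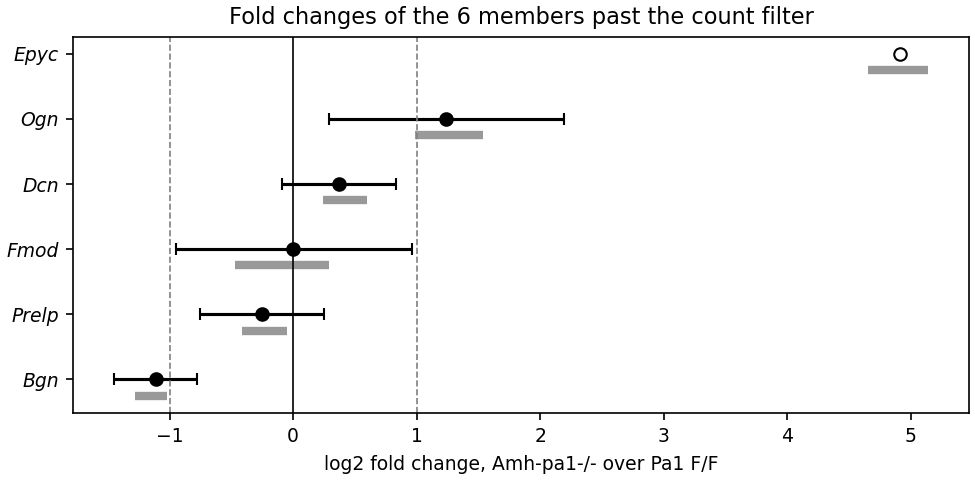
Log2 fold change of *Amh-pa1*-/- over *Pa1* F/F cells for the 6 members past the count filter, with the 95% interval of the edgeR fit (black, none for *Epyc*, whose value chose the family and is an open point) and the lowest and highest value over the alternative settings (grey). Dashed lines mark the threshold of 1 in either direction. The interval of *Bgn* runs from -1.45 to -0.78, that of *Ogn* from 0.29 to 2.19, and those of *Dcn*, *Prelp* and *Fmod* include 0.

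Levels of different members can be compared per length only. Counts scaled to the effective library size (CPM) were divided by the length of the Ensembl canonical transcript in kilobases. On this scale *Bgn* stood alone, with 892 ± 44.1 CPM per kb in *Pa1* F/F cells and 412 ± 78.5 in *Amh-pa1*-/- cells (SD, n = 3 each). In *Pa1* F/F cells the order of the per-length levels was *Bgn*, *Prelp* (16.9 ± 2.59), *Dcn* (13.6 ± 3.53), *Ogn* (0.532 ± 0.200), *Fmod* (0.474 ± 0.107), *Lum* (0.298 ± 0.152), *Epyc* (0.111 ± 0.0241), *Aspn* (0.0926 ± 0.0563), *Omd* (0.0211 ± 0.0366) and *Kera* (0 in every library). Libraries of *Prelp* and *Dcn* overlapped, as did *Ogn* with *Fmod*, *Fmod* with *Lum*, and each neighbour from *Epyc* down to *Kera*, so that these neighbours did not differ beyond their spread. *Bgn* and *Prelp*, *Dcn* and *Ogn*, and *Lum* and *Epyc* did not overlap. In *Amh-pa1*-/- cells *Epyc* reached 3.46 ± 1.13 CPM per kb and place 4, below *Dcn* (17.6 ± 2.87) and *Prelp* (14.2 ± 3.81) and above *Ogn* (1.26 ± 0.490), without overlap with *Prelp* or *Ogn*. *Dcn* and *Prelp* overlapped there too. With the joined exons of all transcripts as the length, *Prelp* instead of *Dcn* was at place 2 in *Amh-pa1*-/- cells, and the places of the other members were the same.

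The family as a whole held between 0.220% and 0.239% of the counts of a *Pa1* F/F library and between 0.106% and 0.145% of an *Amh-pa1*-/- library. *Bgn* made up 96.5 ± 0.180% of the per-length sum in *Pa1* F/F cells and 91.5 ± 1.34% in *Amh-pa1*-/- cells, so that the sum over the family follows *Bgn*. The 9 other members summed to between 31.3 and 32.8 CPM per kb in *Pa1* F/F libraries and between 37.3 and 37.9 in *Amh-pa1*-/- libraries. These sums hold *Epyc*, on whose rise the family was chosen, and without it the remaining 8 members summed to between 31.2 and 32.7 and between 33.2 and 34.9 CPM per kb, a description with no test. Most of that sum was *Dcn* and *Prelp* in every library, and *Dcn* tended to be higher in the libraries where *Prelp* was lower (Pearson's r of log2 CPM -0.89 over 6 libraries, a description).

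**Figure D3:**
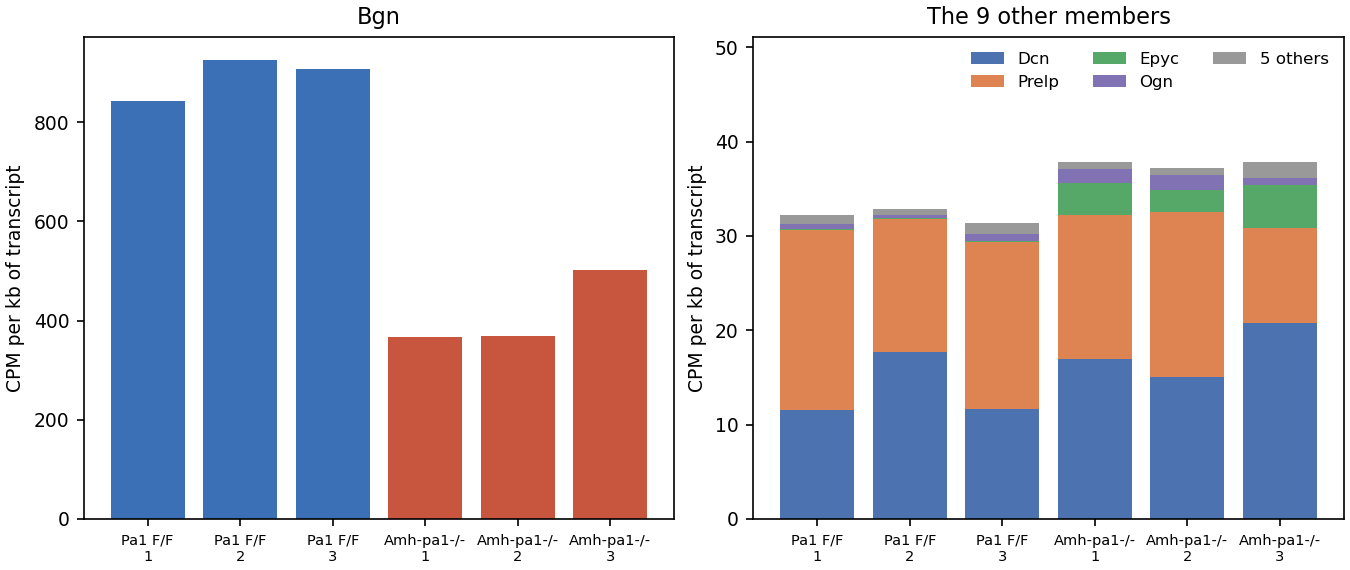
Per-length level (CPM per kb of transcript) in each library, of *Bgn* on the left and of the 9 other members stacked on the right. *Bgn* lies between 842 and 926 in *Pa1* F/F libraries and between 366 and 503 in *Amh-pa1*-/- libraries, and *Epyc* is visible as a band in the *Amh-pa1*-/- libraries, where it lies between 2.35 and 4.60.

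The members are not spread evenly over the genome, which the choice of the family did not use. Of the 10 genes, 9 lie in 3 clusters, namely *Dcn*, *Lum*, *Kera* and *Epyc* within 203 kb of chromosome 10, *Aspn*, *Omd* and *Ogn* within 80.1 kb of chromosome 13, and *Prelp* and *Fmod* within 138 kb of chromosome 1. *Bgn* lies apart on chromosome X. The 4 genes of the chromosome 10 cluster had unlike values. *Epyc* was far higher in *Amh-pa1*-/- cells, *Kera*, its neighbour, had 1 count, *Lum* was at 5 to 15 counts in *Pa1* F/F and 5 or 6 in *Amh-pa1*-/- libraries, and *Dcn* had a log2 fold change of 0.37. No other protein-coding gene of the table lies between them. The nearest tested genes on either side are *Btg1*, an antiproliferative gene 857 kb before *Dcn*, and *Atp2b1*, a plasma membrane calcium pump 1232 kb after *Epyc*. *Btg1* had a log2 fold change of -0.01 (edgeR, adjusted p = 0.935) and *Atp2b1* of -0.07 (edgeR, adjusted p = 0.470).

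On chromosome 13, *Ecm2*, a further gene with leucine-rich repeats that lies 11.7 kb before *Aspn*, stood at 16.3, 25.2 and 23.1 normalized counts in *Pa1* F/F against 13.7, 14.6 and 36.1 in *Amh-pa1*-/- libraries. Like *Aspn* and *Fmod*, it was highest in knockout replicate 3. Its log2 fold change was 0.01 (edgeR, adjusted p = 0.994). *Nol8*, a nucleolar protein gene 28.6 kb after *Ogn*, had a log2 fold change of -0.06 (edgeR, adjusted p = 0.546). On chromosome 1, the calcium pump gene *Atp2b4* before *Prelp* had a log2 fold change of -0.68 (edgeR, adjusted p = 0.00176), under the fold threshold, and *Btg2* after *Fmod* of 0.06 (edgeR, adjusted p = 0.894). On chromosome X, *Haus7* before and *Dusp9* after *Bgn* had log2 fold changes of -0.56 and 0.27 (edgeR, adjusted p = 0.111 and 0.423).

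**Figure D4:**
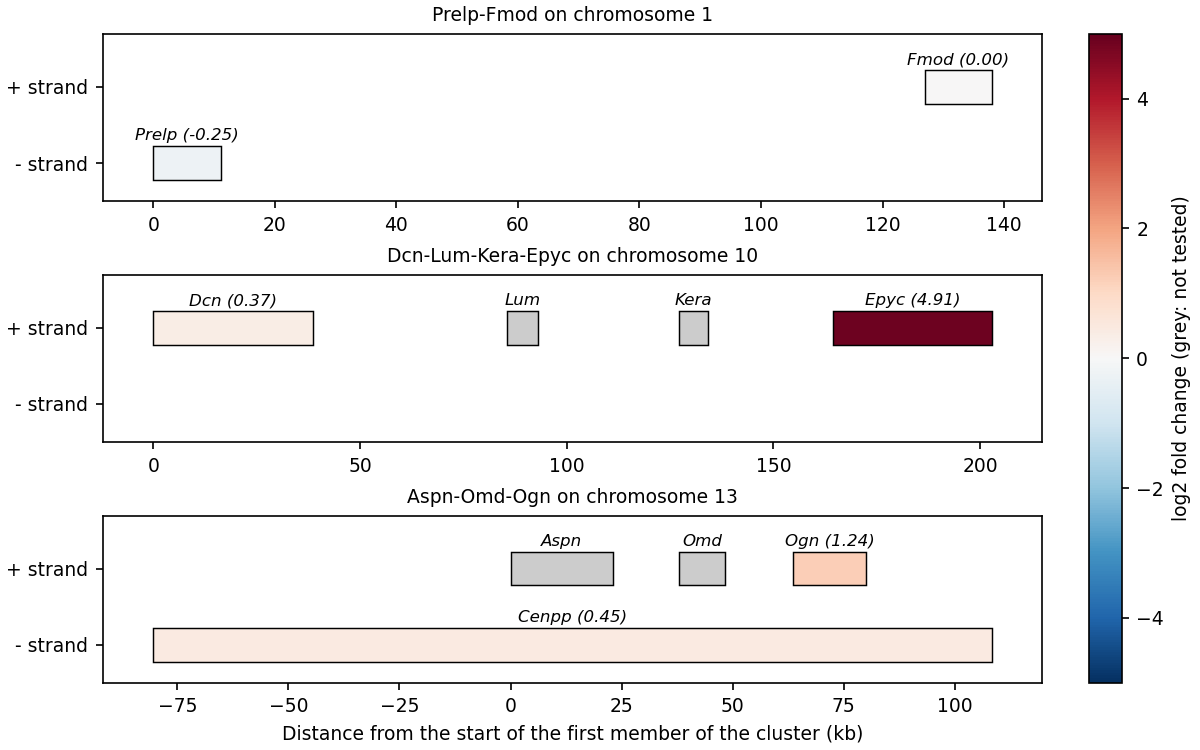
The 3 clusters drawn to scale, with the distance from the start of the first member in kb, the strand, and each protein-coding gene filled by its log2 fold change (grey where not tested). *Epyc* (4.91) is the only deeply coloured gene of its cluster, beside *Dcn* (0.37) and the untested *Lum* and *Kera*.

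The replicates within a genotype were not evenly alike. Over all tested genes, *Amh-pa1*-/- replicates 1 and 2 correlated at 0.9938 on the log2 CPM scale and with replicate 3 at 0.9759 and 0.9755, and *Pa1* F/F replicates 1 and 3 correlated at 0.9943 and with replicate 2 at 0.9824 and 0.9821. These are the close pairs named here. Knockout replicate 3 lay above both other knockout libraries for 8 members and below both for *Prelp* and *Ogn*. The gap was widest for *Aspn*, at 2.88 times the mean of the other knockout libraries. *Fmod* stood at 2.20 times, *Prelp* at 0.613 times and *Ogn* at 0.454 times. *Epyc* stood at 1.59 times and *Bgn* at 1.37 times. For *Lum*, *Omd* and *Kera* the gap was at most 2 counts. Without knockout replicate 3, *Bgn* and *Ogn* were past the threshold and *Dcn* was not.

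Markers of other cell types moved between the groups as well, and their part in the values of the members was not tested. In RNA from a bulk preparation, fewer cells of a type and less RNA per cell cannot be told apart. Over all tested genes, 5.44% passed as higher and 6.56% as lower, or 12.0% in either direction. By the adjusted p-value of edgeR alone, 18.2% were higher and 17.1% were lower. The sums of each list are given as *Pa1* F/F and then *Amh-pa1*-/- ranges over libraries, followed by the same without the most abundant gene of the list. Of 17 tested Sertoli markers, 3 (*Inha*, *Inhbb* and *Gdnf*) were lower and 0 were higher, and by the adjusted p-value of edgeR alone 6 were lower and 2 were higher. Of the defining transcription factors, named after their values were seen, *Gata4* had means of 7734 and 4197 normalized counts in *Pa1* F/F and *Amh-pa1*-/- cells (log2 fold change -0.88, edgeR, adjusted p = 3.25e-04, under the fold threshold), *Sox9* of 4654 and 4287 (-0.12, adjusted p = 0.613) and *Wt1* of 5083 and 5547 (0.13, adjusted p = 0.449). *Nr5a1* and *Clu* were also lower by the adjusted p-value of edgeR alone (log2 fold changes -0.41 and -0.69, adjusted p = 0.00374 and 0.0220), and *Dmrt1* and *Krt18* were higher (0.64 and 0.53, adjusted p = 0.00766 and 0.0121). The Sertoli sums ran from 20423 to 21554 CPM and from 13063 to 17165 CPM, of which *Clu* held 54.7% to 64.0%, and without *Clu* from 7356 to 8417 CPM and from 5888 to 7232 CPM. Peritubular myoid markers rose in 3 of 8 tested genes, *Acta2*, *Myl9* and *Smoc2*, with sums from 387 to 523 CPM and from 1595 to 1944 CPM, and without *Acta2* from 215 to 308 CPM and from 788 to 899 CPM, mostly *Myl9*. Of the other myoid markers, named after their values were seen, *Myh11* lay between 481 and 649 normalized counts in *Pa1* F/F libraries and at 216, 164 and 1605 in *Amh-pa1*-/- libraries, and *Des* between 93.0 and 139 and at 43.9, 46.2 and 485. *Actg2* lay between 124 and 183 and at 66.4, 51.8 and 730.4, and *Cnn1* between 27.1 and 65.0 and at 34.2, 24.8 and 421. These contractile genes were highest in knockout replicate 3. In knockout replicates 1 and 2, *Myh11*, *Des* and *Actg2* lay below all control libraries. Replicate 3 was also the highest knockout library for 8 of the 10 family members. *Tagln*, too low to be tested, had means of 4.71 and 8.83 normalized counts in *Pa1* F/F and *Amh-pa1*-/- cells. Mesothelial markers rose in 4 of 7 tested genes, with sums from 345 to 361 CPM and from 345 to 448 CPM, or, without the Sertoli gene *Wt1*, from 7.16 to 12.5 CPM and from 31.4 to 40.3 CPM, while *Bnc1* did not exceed the floor in any library. Of the 4, *Krt19* and *Muc16* lay under 10 normalized counts in every control library, and *Upk3b* in control replicates 1 and 2. These genes passed the count filter through the knockout libraries, where they were high. Markers of fibroblasts and interstitial stroma were lower for 3 and higher for 1 of 10 tested genes, with sums from 1039 to 1108 CPM and from 472 to 695 CPM, and without *Col15a1* from 145 to 169 CPM and from 75.9 to 141 CPM, and *Clec3b* did not exceed the floor. *Gas1*, a lower gene, lay under 10 normalized counts in every knockout library and passed the count filter through the control libraries alone. *Thy1*, the higher gene, had 3.87 in control replicate 2 and passed the filter through the knockout libraries.

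Of the remaining marker lists, Leydig cell genes were lower for 3 of 3 tested, with sums from 793 to 909.7 CPM and from 164 to 287 CPM, and without *Star* from 297 to 344 CPM and from 27.4 to 31.8 CPM, while *Cyp17a1* and *Insl3* did not exceed the floor in any library. Macrophage genes were lower for 6 of 8 tested (124 to 137 CPM and 75.4 to 92.8 CPM). *Mrc1*, which did not pass, held 49.0% to 89.0% of these sums, and without it they were 54.8 to 69.7 CPM and 10.1 to 12.2 CPM. Of the 6 lower macrophage genes, *Adgre1*, *C1qc* and *Ptprc* lay under 10 normalized counts in every knockout library. They passed the count filter through the control libraries alone, where they were high. Endothelial genes were lower for 1 and higher for 1 of 3 tested (113 to 116 CPM and 58.9 to 68.6 CPM, and without *Cdh5* 4.55 to 7.36 CPM and 2.92 to 3.84 CPM), with *Emcn* at or under the floor. *Vwf*, the higher gene, lay under 10 normalized counts in every control library and passed the count filter through the knockout libraries alone. Germ cell genes were lower for 2 of 4 tested (192 to 219.5 CPM and 105 to 200.2 CPM), but *Uchl1*, which did not pass, held 93.9% to 99.0% of these sums, and without it they were 4.01 to 5.98 CPM and 1.86 to 6.39 CPM, with *Stra8*, *Zbtb16*, *Spo11*, *Prm1* and *Acrv1* at or under the floor. The 2 lower germ cell genes, *Ddx4* and *Kit*, lay under 10 normalized counts in every knockout library. Both passed the count filter through the control libraries alone.

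Genes that make, modify, bind or cut these proteoglycans were followed in 7 lists, which together held 100 tested genes. Of these, 5 were higher and 18 were lower in *Amh-pa1*-/- cells, or 23.0%, as compared with 12.0% of all tested genes, and their median log2 fold change was -0.27 beside 0.00 for all tested genes. With the close pairs of libraries summed, 12 of them passed, beside 883 of all 15966 genes tested in that setting. The calls of *Col14a1*, *Mmp3*, *Adamts1*, *Cspg5*, *Bcan* and *Nyx* were among those lost there (edgeR, adjusted p = 0.125, 0.0808, 0.0615, 0.0908, 0.112 and 0.126). Of the 23 genes that passed, 7 (*Nyx*, *Mmp3*, *Mmp12*, *Col14a1*, *Chst1*, *Srgn* and *Cspg5*) had under 10 counts in at least 1 knockout library, passed the filter through the control libraries where they were high, and have no value when 10 counts were asked of every library. In that setting 16 genes of the lists passed, beside 1268 of all 13301 genes tested. The lists are described by their counts and were chosen with earlier results of these data known.

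Of 9 listed further members and relatives of the family 5 were tested, of which 1 was lower, and the median log2 fold change was -0.41. *Nyx*, encoding nyctalopin of the retina, had 15.6 ± 1.76 and 7.14 ± 2.28 normalized counts (SD, n = 3 each), with a log2 fold change of -1.10 (edgeR, adjusted p = 0.0379). That call did not hold without any 1 of *Pa1* F/F replicates 1, 2 and 3 (edgeR, adjusted p = 0.0767, 0.0939 and 0.118) or of *Amh-pa1*-/- replicates 2 and 3 (0.118 and 0.0797), nor with the replicate number as a block (0.106), in the DESeq2 Wald test (0.159) or in edgeR without the filter (0.103). *Nyx* passed the count filter through its control libraries, with 13.6, 16.5 and 16.8 normalized counts against 9.76, 5.63 and 6.01 in the knockout.

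Enzymes that build and sulfate the chondroitin and dermatan sulfate chains of *Dcn*, *Bgn* and *Epyc* were lower for 3 and higher for 0 of 20 tested genes, with a median log2 fold change of -0.01. Of all tested genes, 12.0% passed in either direction, so the count of this list alone does not set it apart. At an adjusted p-value alone 4 of the 20 were lower and 6 were higher in edgeR. By that criterion 17.1% of all tested genes were lower and 18.2% were higher. The 3 lower genes encode sulfotransferases, while *Chst12*, a further sulfotransferase of the list, had a log2 fold change of 0.60 (edgeR, adjusted p = 0.00303), under the fold threshold, and *Chst14* and *Ust* did not pass. *Chst11*, a chondroitin sulfotransferase, fell from 4622 ± 313 to 1775 ± 880.0 normalized counts, *Chst3*, which sulfates another position of the chain, from 482 ± 80.8 to 186 ± 45.4, and *Chst15*, which adds a further sulfate, from 69.5 ± 1.92 to 31.2 ± 5.10 (SD, n = 3 each). Their log2 fold changes were -1.38, -1.37 and -1.15 (edgeR, adjusted p = 0.0300, 0.00302 and 0.00428). The call of *Chst11* did not hold without *Pa1* F/F replicate 1, 2 or 3 (edgeR, adjusted p = 0.0825, 0.0576 and 0.0861) or without *Amh-pa1*-/- replicate 1 (0.0519). With the close pairs summed, *Chst11*, *Chst3* and *Chst15* all lost their calls (edgeR, adjusted p = 0.131, 0.0610 and 0.0765), and 0 genes of the list passed, with 8 of 21 tested at an unadjusted p under 0.05. Of the keratan sulfate enzymes, 1 of 4 tested genes was lower, with a median of -0.85 over the 4. *Chst1*, the keratan sulfate sulfotransferase, stood at 272, 155 and 240.2 normalized counts in *Pa1* F/F against 29.3, 30.4 and 8.02 in *Amh-pa1*-/- replicates, without overlap (log2 fold change -3.30, edgeR, adjusted p = 0.00216).

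Among the fibril collagens and genes of collagen assembly, on which these proteoglycans act, 2 of 23 tested genes were higher and 1 was lower. This share was close to the 12.0% of all tested genes that passed in either direction. The median log2 fold change of the list was -0.28. *Col12a1*, a collagen on the surface of fibrils, rose from 1226 ± 214 to 4288 ± 1209 normalized counts (SD, n = 3 each, log2 fold change 1.81, edgeR, adjusted p = 0.00150). *Loxl4*, a crosslinking lysyl oxidase, rose from 185 ± 32.8 to 892 ± 27.3 (log2 fold change 2.27, edgeR, adjusted p = 1.19e-04). *Col14a1*, also on the surface of fibrils, fell from 126 ± 35.9 to 24.2 ± 19.4 (log2 fold change -2.36, edgeR, adjusted p = 0.0143). Without *Amh-pa1*-/- replicate 3, 8 genes of this list passed. The call of *Col14a1* did not hold without *Pa1* F/F replicate 1 or 3 (edgeR, adjusted p = 0.0533 and 0.0525) or *Amh-pa1*-/- replicate 1 (0.0556), and its log2 fold change was -3.20 without *Amh-pa1*-/- replicate 3.

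Of ligands and receptors that these proteoglycans bind, 1 of 18 tested genes was higher and 3 were lower, with a median log2 fold change of -0.29. *Erbb4*, a receptor of the EGF receptor family, rose from 261 ± 76.5 to 1032 ± 179.6 normalized counts (SD, n = 3 each, log2 fold change 1.98, edgeR, adjusted p = 0.00156). The hepatocyte growth factor receptor *Met*, the ligand *Tgfb3* and *Cd14*, a co-receptor of Toll-like receptors, fell, with log2 fold changes of -1.61, -1.08 and -1.90 (edgeR, adjusted p = 0.00202, 0.00300 and 0.00710). *Tgfb3* was just past the fold threshold, and its log2 fold change was -0.98 and -0.99 without *Amh-pa1*-/- replicate 1 and 2. With the close pairs summed, the calls of *Tgfb3* and *Cd14* were lost (edgeR, adjusted p = 0.0654 and 0.0601), and 2 genes of the list passed.

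Of proteases that are known to cut small leucine-rich proteoglycans, 1 of 9 tested genes was higher and 4 were lower, with a median log2 fold change of -0.97. *Mmp2*, a gelatinase that cleaves decorin, fell from 3946 ± 658 to 869 ± 242 normalized counts (SD, n = 3 each, log2 fold change -2.18, edgeR, adjusted p = 8.45e-04). *Mmp12*, a metalloelastase of macrophages, fell from 368 ± 27.6 to 23.3 ± 16.8 (log2 fold change -3.98, edgeR, adjusted p = 0.00179), and macrophage markers were lower in the same libraries, as given above. *Mmp3* stood at 16.3, 59.1 and 15.7 normalized counts in *Pa1* F/F against a mean of 1.68 ± 2.01, under the floor, in *Amh-pa1*-/- cells (edgeR, adjusted p = 0.0167, and 0.0585 without *Amh-pa1*-/- replicate 2), and passed the count filter through the control libraries alone. *Ctsk*, encoding cathepsin K, was the remaining lower gene and is named after its values were seen (log2 fold change -1.31, edgeR, adjusted p = 4.41e-04). *Adamts1* rose from 950.1 ± 43.9 to 2502 ± 1086, with 1910.3, 1841 and 3755 in the *Amh-pa1*-/- group. Its log2 fold change was 1.40 (edgeR, adjusted p = 0.00894), and 0.98, under the fold threshold, without replicate 3.

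Of proteoglycans outside the family, 1 of 21 tested genes was higher and 5 were lower, with a median log2 fold change of -0.53. *Tgfbr3*, encoding betaglycan, which presents TGF-β to its receptors, fell from 739.7 ± 42.8 to 192 ± 36.3 normalized counts (SD, n = 3 each, log2 fold change -1.95, edgeR, adjusted p = 2.48e-04). *Srgn*, encoding the serglycin of secretory granules in blood cells, fell from 64.1 ± 8.56 to 8.48 ± 4.58 (log2 fold change -2.89, edgeR, adjusted p = 0.00156). *Cspg5*, a chondroitin sulfate proteoglycan of neurons, fell from 40.2 ± 3.22 to 10.4 ± 6.57 (log2 fold change -1.95, edgeR, adjusted p = 0.0137, and 0.0502 without *Amh-pa1*-/- replicate 2). *Col18a1* and *Gpc1*, heparan sulfate proteoglycans of the basement membrane and of the cell surface, were the remaining lower genes and are named after their values were seen (log2 fold changes -1.86 and -1.24, edgeR, adjusted p = 1.14e-04 and 5.13e-04).

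*Bcan*, encoding the brevican of brain matrix, was the higher gene of this list, and its size rested on 1 library. It stood at 194, 297 and 173 normalized counts in *Pa1* F/F against 494, 518 and 2523 in *Amh-pa1*-/- libraries. Its log2 fold change was 2.41 (edgeR, adjusted p = 0.0335), and 1.19 without *Amh-pa1*-/- replicate 3. The call did not hold without *Pa1* F/F replicate 1, 2 or 3 (edgeR, adjusted p = 0.109, 0.0647 and 0.110) or with the replicate number as a block (0.0862).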

How the data were processed

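Total RNA of cultured Sertoli cells was sequenced in 6 libraries, 3 per genotype. Per the methods and the submitters' processing notes, the authors aligned reads to GRCm38 with HISAT2 2.1.0 and deposited raw counts per gene from HTSeq 0.6.0, without normalization. The columns of the authors' own comparison (fold changes and p-values) were not used. The members and lists were chosen with earlier results of these data known.

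Counts were filtered with edgeR's filterByExpr (minimum count 10, minimum total count 15), TMM-normalized and, for 14919 genes, compared by the quasi-likelihood test of edgeR 4.0.16 (R 4.3.3) with Benjamini-Hochberg adjustment. Alternatives used limma 3.58.1 or DESeq2 1.42.0. Tables were made in Python 3.11.15. Standard errors are the absolute log2 fold change over the square root of F. The steps were tested on simulated data with known answers. Log2 CPM values used a prior count of 3. Transcript lengths came from GENCODE by gene ID, without coordinates, since that annotation is of GRCm39, and a long annotated transcript lowers a gene's per-length level. Named genes were the members, the called genes of each pathway list (at most 4 by size), the genes of the clusters with their nearest tested neighbours, and the 5 genes most like *Epyc*. The alternatives were other scalings, tests and filters, a replicate block, summed close pairs and each library left out. Libraries of 13203757 to 16231443 counts set the floor of 3 counts at 0.185 to 0.229 CPM. This floor and the exact intervals of summed counts cover counting error only, while the intervals of the edgeR fits also hold the spread between libraries.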

Additional observations from a re-analysis of the deposited data

How the results depend on the processing

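Of the 5 tested members other than *Epyc*, 2 (*Bgn* and *Ogn*) passed, and the number kept to 2 in 5 of 15 alternatives. It was 1, *Bgn*, with DESeq2 size factors, limma-voom, at least 10 counts in every library and the replicate block, and between 1 and 2 with 1 library left out. It was 0 in edgeR with the close pairs of libraries summed, where 1, *Bgn*, of 6 tested members other than *Epyc* had an unadjusted p under 0.05. Over all genes the number was 1791, with 883 for summed close pairs, 5266 at an adjusted p-value alone, and between 1466 and 2076 with 1 library left out. In the 7 pathway lists 23 genes passed, 12 with summed close pairs and 52 at an adjusted p-value alone, and between 19 and 31 with 1 library left out. The log2 fold change of *Epyc*, a description, lay between 4.65 and 5.14 over 13 alternatives, and with at least 10 counts in every library *Epyc* had no value. *Bgn* kept its call in 13 of 14 and *Ogn* in 4 of 14. *Fmod*, at 0.00, took the other sign in 6 alternatives, with 0.00 after rounding for DESeq2 size factors, -0.08 for limma-voom, -0.01 with at least 10 counts in every library, -0.07 with the replicate block, and from -0.47 to 0.29 with 1 library left out, and passed in none. The causes were not tested.

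The labels do not say whether libraries of the same replicate number were paired or shared a batch. Deviations of same-numbered libraries from their group means correlated at 0.108, -0.164 and -0.179. Those of *Pa1* F/F replicate 2 and *Amh-pa1*-/- replicate 3 correlated at 0.214, the highest of all pairs. With 3 libraries per group these values cannot decide the question. With the replicate block 1 member, 1558 genes in all and 21 pathway genes passed. *Aspn*, *Lum*, *Omd* and *Kera* are limited by depth.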

Other observations

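The genes whose log2 CPM values were most like those of *Epyc* over the 6 libraries, among 11717 tested genes whose mean reached 50 normalized counts, were *Pkp4*, *Jakmip2*, *Tpbg*, *Tipin* and *Spg7*, with Pearson's r between 0.998 and 0.999. They were picked for this likeness, so their separation of the genotypes follows from the choice, and 961 genes reached an r of 0.95. *Jakmip2*, a cytoskeleton-associated gene, lay between 23.1 and 30.0 normalized counts in *Pa1* F/F libraries and between 148 and 217 in *Amh-pa1*-/- libraries. *Tpbg*, which encodes the trophoblast glycoprotein, itself a membrane protein with leucine-rich repeats, lay between 71.3 and 77.5 and between 247 and 349.7. *Pkp4*, a plakophilin of cell junctions, lay between 665 and 679.6 and between 1219 and 1412. None of these is a small leucine-rich proteoglycan.

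Outside the filter, with every gene of at least 1 count entered, the log2 fold changes of the untested members were 1.99 for *Aspn*, 1.53 for *Omd*, 1.91 for *Kera* and -0.84 for *Lum* (edgeR, adjusted p = 0.0619, 0.496, 0.544 and 0.362 over 28262 genes). The fitted values of *Omd* and *Kera* rest on 8 counts and 1 count.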
